A study of Mus musculus with 15 samples.

Results

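The 39 core interferon-stimulated genes described here are a fixed list of mouse genes that interferon signalling is known to induce, with members that carry the antiviral response and members that transmit or restrain the signal. They are listed by name, with no rule on their values, and were found in the deposited count table through their Entrez gene IDs. The list was chosen with earlier results of these data known. Shares of members set beside those of all tested genes below are therefore descriptions, and the list is not independent of the data. All 39 of 39 were present among the 39827 genes read, and all 39 passed the filter on low counts that left 15948 genes for testing.

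Interferons are secreted proteins that cells release when they sense foreign or misplaced nucleic acid. Type I interferons bind a receptor made of IFNAR1 and IFNAR2, whose kinases JAK1 and TYK2 activate the complex ISGF3, which contains STAT2 and IRF9 and binds the interferon-stimulated response element (ISRE). Interferon gamma acts through another receptor and on genes with the gamma-activated sequence (GAS). Resting lymphocytes keep a low tonic level of many of these genes without infection.

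RNA-seq was done on 15 libraries of leukemic T cells from mouse spleen, 3 in each of 5 groups. All groups descend from bone marrow progenitors (GFP+, lineage-negative, cKit+, Sca1+) transduced by retrovirus with ΔE-NOTCH1, a shortened, ligand-independent form of the NOTCH1 receptor, and were grown in lethally irradiated C57BL/6J mice. KO3 and KO7 are leukemias labelled knock-out for Bcat1, the cytosolic enzyme that transfers the amino group of branched-chain amino acids, and the labels give PBS as their treatment. WT6 is a Bcat1 wild-type leukemia, also with PBS. WT0 is another wild-type leukemia with 2 arms, where mice were injected intraperitoneally with 3 doses of the BCAT1 inhibitor ERG-245 (30 mg per kg, 8 h apart) or with PBS. Each of KO3, KO7 and WT6 is a single leukemia number, and the sources used here give neither the age or sex of the mice nor the exons removed in the knock-out.

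Bcat1 was measured at 6.84, 6.16 and 7.84 CPM (the gene's count scaled to the adjusted library total) in KO3 and at 2.11, 2.67 and 1.48 CPM in KO7. It was at 34.7, 35.3 and 35.6 CPM in WT6, at 14.0, 13.5 and 12.5 CPM in WT0 with ERG-245 and at 18.4, 16.7 and 18.3 CPM in WT0 with PBS, so both knock-outs lay below every wild-type library without reaching 0. Total counts per library were 17441292 to 28902573. The 11 T cell markers looked up were all detected in each group, with summed levels of 5254 to 5321 CPM in KO3, 4025 to 4095 in KO7, 4834 to 4916 in WT6, 3225 to 3244 in WT0 with ERG-245 and 4311 to 4341 in WT0 with PBS. The leading T cell receptor beta V segment differed between groups, and it also differed between the arms of WT0: Trbv16 made up 49.9% of V segment counts with ERG-245 and 4.92% with PBS, and Trbv17 made up 0.93% with ERG-245 and 39.7% with PBS. The clone makeup and the drug therefore cannot be told apart in that pair. The alignment names in the file header call the PBS libraries of WT0 DMSO, where the labels say PBS. The labels leave unsaid if a group's 3 libraries stand for different mice, so p-values below speak only of variation from library to library, possibly technical.

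The ISRE and GAS motifs were looked up in promoter windows of RefSeq on GRCm38.p6 (250 bases before to 50 after a start site), which were found for 30 of the 39 members. The ISRE core searched was a pair of GAAA words separated by any 2 bases, on either strand, and it stood in the windows of 13 of those 30 members, against 3.99% of the 27025 genes with a window (3.44% of 32851 windows). The GAS core searched was TTCNNNGAA, which reads the same on both strands, and stood in 8 of the 30 members, against 9.55% of genes (8.30% of windows). In Bst2 a GAS core overlaps an ISRE core. The stretches shown belong to 4 members with wide differences between groups whose windows held a core (Rsad2, Isg15, Ifit1, Isg20), to a subunit of ISGF3 (Stat2), and to members that went against the others (Socs1, Trim30a, Bst2). They are printed 5′ to 3′ on the gene's strand, with the letters covered by ISRE cores in capitals, and for Isg20 those covered by the GAS core.
Rsad2: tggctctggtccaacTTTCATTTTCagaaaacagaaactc
Isg15: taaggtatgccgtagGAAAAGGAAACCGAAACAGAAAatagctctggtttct
Ifit1: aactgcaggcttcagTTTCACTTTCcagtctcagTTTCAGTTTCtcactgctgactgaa
Stat2: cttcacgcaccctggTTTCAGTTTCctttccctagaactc
Socs1: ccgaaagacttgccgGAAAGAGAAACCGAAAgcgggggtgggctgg
Trim30a: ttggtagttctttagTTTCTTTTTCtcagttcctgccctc
Bst2: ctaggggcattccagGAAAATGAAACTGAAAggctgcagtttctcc
Isg20: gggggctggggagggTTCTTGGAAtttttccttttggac

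On GRCm38.p6 these stretches lie upstream of their genes at chr12:26456548-26456587 (minus strand) for Rsad2, chr4:156200860-156200911 (minus strand) for Isg15, chr19:34640770-34640828 (plus strand) for Ifit1 and chr10:128270261-128270300 (plus strand) for Stat2. Those of the others lie at chr16:10785589-10785634 (minus strand) for Socs1, chr7:104465205-104465244 (minus strand) for Trim30a, chr8:71537572-71537617 (minus strand) for Bst2 and chr7:78913336-78913374 (plus strand) for Isg20. Isg15 holds 3 overlapping cores within its stretch, Socs1 and Bst2 hold 2 overlapping cores each, and Ifit1 holds 2 separate ones. A match says only that these letters are in the window.

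The 39 genes did not follow genotype or drug as a block. For 18 of them the lowest groups were KO3 and WT6, with all 6 of their libraries below all 9 libraries of KO7 and WT0; 9.98% of the 15948 tested genes had this order. The opposite order was seen in 0 members, against 7.42% of tested genes. The 18 are Ifit1, Ifit3, Isg15, Rsad2, Irf7, Irf9, Stat2, Usp18, Ifi27l2a, Dhx58, Cmpk2, Parp9, Parp14, Lgals3bp, Isg20, Sp100, Adar and Ifitm3. This order was noticed after the values were seen and carries no test. WT0 with ERG-245 was the highest group for 19 members (19.5% of tested genes had it highest). KO7 was highest for 8 (19.8%), WT6 for 5 (23.2%), WT0 with PBS for 4 (20.9%) and KO3 for 3 (16.6%). WT6 was the lowest group for 18 members (18.7% of tested genes had it lowest). KO3 was lowest for 14 (17.3%), WT0 with PBS for 3 (21.1%), KO7 for 2 (22.4%) and WT0 with ERG-245 for 2 (20.5%).

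The summed level of the 39 genes was 1502 to 1513 CPM in KO3, 2393 to 2402 CPM in KO7, 1500 to 1507 CPM in WT6, 2907 to 2956 CPM in WT0 with ERG-245 and 2264 to 2290 CPM in WT0 with PBS. Summed levels of 11 erythroid markers were likewise lowest in KO3 and WT6, with 10560 to 10980 CPM in KO3, 54510 to 57970 CPM in KO7, 10970 to 12650 CPM in WT6, 46030 to 50040 CPM in WT0 with ERG-245 and 38190 to 40390 CPM in WT0 with PBS. None of the 11 was at 0 in any group. The 15 macrophage and monocyte markers summed to 1490 to 1495 CPM in KO3, 3477 to 3498 CPM in KO7, 1972 to 2067 CPM in WT6, 1573 to 1596 CPM in WT0 with ERG-245 and 1187 to 1206 CPM in WT0 with PBS, with none at 0. The part of these other cells in the order of the interferon-stimulated genes was not tested. The 9 markers of plasmacytoid dendritic cells, known as strong makers of interferon, summed to 159.2 to 162.5 CPM in KO3, 202.8 to 209.7 CPM in KO7, 717.6 to 786.1 CPM in WT6, 113 to 119 CPM in WT0 with ERG-245 and 172 to 177.6 CPM in WT0 with PBS, and were thus highest in WT6. Ly6d and Ccr9 made up most of the sum in WT6, at 497.7 and 121.7 CPM. Siglech, a more specific marker, had group means of 0.0154 CPM in KO3, 0 in KO7, 0.145 in WT6, 0.0527 in WT0 with ERG-245 and 0.243 in WT0 with PBS, and Klk1 reached 0.0148 CPM in WT0 with PBS and was at 0 in the other groups. Their part in the result was not tested. In such bulk RNA, fewer cells of a type and less RNA per cell cannot be told apart.

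**Figure D1:**
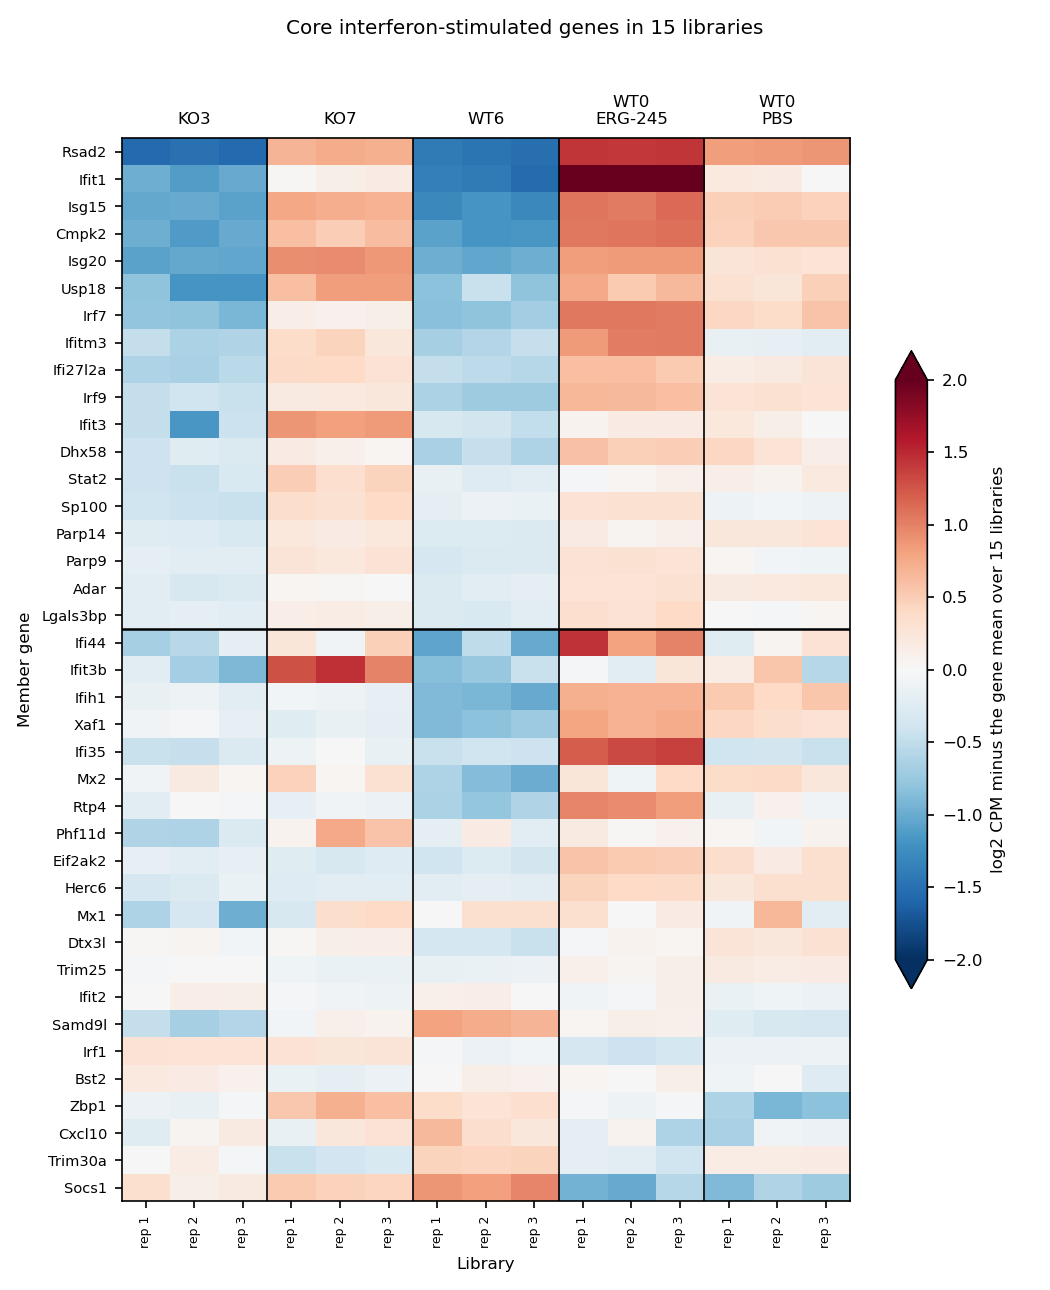
Level of each of the 39 members (rows) in each of the 15 libraries (columns, grouped), as log2 CPM minus the gene's mean over the 15 libraries, with colours ending at -2 and 2. The 18 members above the black line have all KO3 and WT6 libraries below all KO7 and WT0 libraries; the 21 below it follow other orders.

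**Figure D2:**
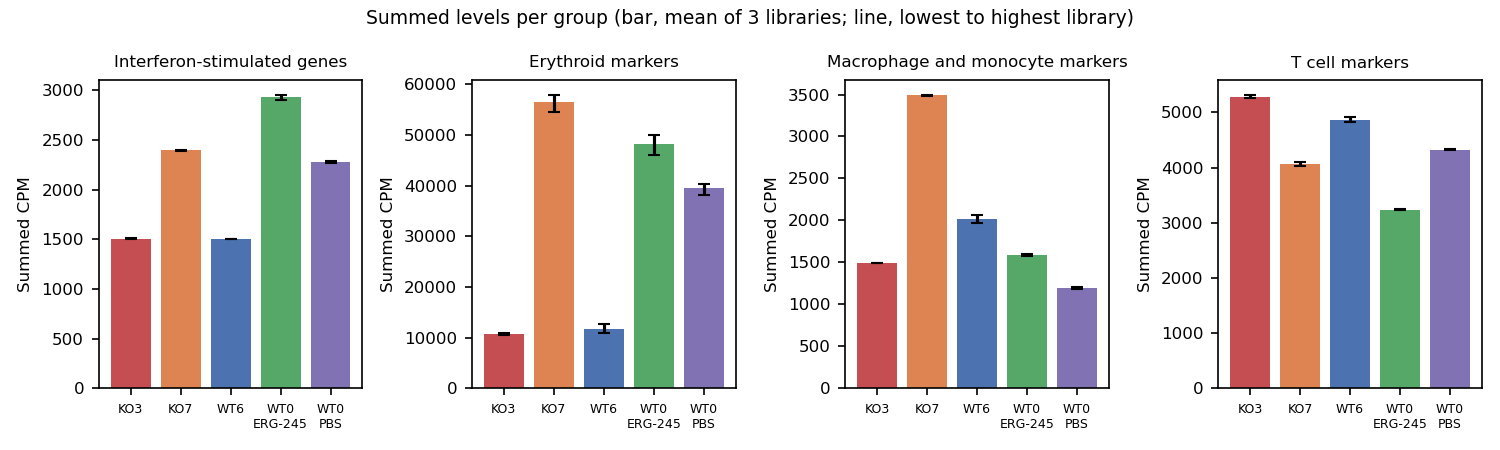
Summed CPM (vertical axis, from 0) of the 39 interferon-stimulated genes and of 3 marker lists in the 5 groups; bars are means of 3 libraries and lines run from the lowest to the highest library. The interferon-stimulated genes and the 11 erythroid markers are low in KO3 and WT6, the macrophage and monocyte markers are highest in KO7, and the T cell markers are lowest in WT0 with ERG-245.

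Among the signal transmitters, Irf7, the factor that amplifies type I interferon production, measured 27.2, 26.8 and 25 CPM in KO3, 51.5, 49.7 and 51.2 in KO7, 26.4, 26.8 and 28.9 in WT6, 97.7, 97.8 and 96.8 in WT0 with ERG-245 and 62.3, 60.6 and 70.0 in WT0 with PBS. WT0 with ERG-245 stood highest without overlap, and KO3 and WT6 overlapped at the low end. Irf9, the DNA-binding subunit of ISGF3, measured 42.0, 44.3 and 42.8 CPM in KO3, 66.3, 66.7 and 68.6 in KO7, 37.4, 35.7 and 35.6 in WT6, 92.2, 91.6 and 88.0 in WT0 with ERG-245 and 70.6, 72 and 70.2 in WT0 with PBS. No groups overlapped, and WT6 was lowest. Stat2, also a subunit of ISGF3, measured 36.6, 35.8 and 39.6 CPM in KO3, 68.5, 61.3 and 66.4 in KO7, 44.0, 40.9 and 41.7 in WT6, 48.0, 50.3 and 52.4 in WT0 with ERG-245 and 53.7, 51.5 and 55.6 in WT0 with PBS. KO7 was above all other libraries, KO3 was below all others, and the arms of WT0 overlapped. Irf1, a factor induced most directly by interferon gamma through a GAS, measured 116, 115 and 115 CPM in KO3, 117, 112 and 114 in KO7, 93.7, 87.6 and 91.4 in WT6, 75.1, 71.2 and 74.5 in WT0 with ERG-245 and 87.4, 87.9 and 88.9 in WT0 with PBS. Its 6 knock-out libraries lay above all 9 wild-type libraries, a pattern that differs from that of the other transcription factors, and WT0 with ERG-245 was lowest. The share of all tested genes with this order was not counted.

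Among the effectors, Rsad2 encodes viperin, an enzyme that makes a chain-terminating nucleotide. Rsad2 measured 67.9, 70.9 and 68.0 CPM in KO3, 319, 332 and 326 in KO7, 74.4, 72 and 70.3 in WT6, 538, 529.7 and 535 in WT0 with ERG-245 and 356, 357 and 368 in WT0 with PBS. WT0 with ERG-245 was highest, WT0 with PBS and KO7 followed without overlap, and WT6 and KO3 overlapped at the bottom. Cmpk2, a mitochondrial nucleotide kinase, measured 18.0, 16.1 and 17.6 CPM in KO3, 53.3, 49.8 and 54.0 in KO7, 16.8, 15.6 and 15.8 in WT6, 73.5, 74.0 and 75.8 in WT0 with ERG-245 and 48.4, 51.2 and 51.4 in WT0 with PBS. Cmpk2 lies 12664 bases from Rsad2 on chromosome 12 in the opposite direction, and its low groups were the same. Isg20, an exonuclease that degrades RNA, measured 63.6, 66.1 and 65.1 CPM in KO3, 255, 259 and 244.7 in KO7, 67.9, 65.2 and 68.1 in WT6, 238, 243 and 242 in WT0 with ERG-245 and 159, 166 and 163 in WT0 with PBS. KO7 and WT0 with ERG-245 were highest and did not overlap, and WT6 and KO3 overlapped at the low end.

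The ISG15 system attaches and removes a small ubiquitin-like protein. Isg15, that protein, measured 38.6, 38.8 and 37.0 CPM in KO3, 133, 129 and 126 in KO7, 32.0, 34.5 and 32.1 in WT6, 163, 159.6 and 171 in WT0 with ERG-245 and 109, 111 and 107 in WT0 with PBS. No neighbouring groups overlapped, and the lowest library of WT0 with PBS was above the highest of KO3 and WT6. Usp18, which cleaves ISG15 from its targets and restrains the type I receptor, measured 5.57, 4.29 and 4.34 CPM in KO3, 14.9, 17.4 and 17.5 in KO7, 5.52, 7.20 and 5.58 in WT6, 16.6, 14.1 and 15.4 in WT0 with ERG-245 and 12.1, 11.5 and 13.6 in WT0 with PBS. Its low groups were WT6 and KO3, which overlapped. Herc6, the ISG15 ligase of mice, did not follow them: its libraries ranged from 38 to 43.8 CPM in KO3, 40.3 to 41.4 CPM in KO7, 40.9 to 42.3 CPM in WT6, 62.8 to 65.7 CPM in WT0 with ERG-245 and 56.3 to 59.8 CPM in WT0 with PBS. Both arms of WT0 were above the other leukemias, which overlapped. In the GENCODE transcripts, 12.5% of the 50-base stretches of Herc6 are shared with other genes, so its count is less certain.

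The Ifit genes encode proteins that bind viral RNA and form a cluster on chromosome 19. Ifit1 measured 5.76, 5.23 and 5.63 CPM in KO3, 11.5, 12.3 and 12.7 in KO7, 4.39, 4.25 and 3.90 in WT6, 54.5, 53.4 and 55.3 in WT0 with ERG-245 and 13.0, 12.8 and 11.4 in WT0 with PBS. The drug arm stood far above the rest, and WT0 with PBS and KO7 overlapped. Ifit3 measured 2.55, 1.59 and 2.63 CPM in KO3, 6.53, 6.24 and 6.36 in KO7, 2.83, 2.75 and 2.52 in WT6, 3.71, 3.96 and 3.95 in WT0 with ERG-245 and 4.08, 3.83 and 3.52 in WT0 with PBS. KO7 was highest, the arms of WT0 overlapped in the middle, and WT6 and KO3 overlapped at the bottom. Ifit2 measured 29.7, 32.4 and 31.8 CPM in KO3, 28.7, 28.0 and 27.4 in KO7, 31.4, 32.3 and 29.6 in WT6, 28.1, 28.9 and 32.1 in WT0 with ERG-245 and 26.8, 27.6 and 27.2 in WT0 with PBS. Its groups overlapped from neighbour to neighbour along the whole order, unlike those of Ifit1 and Ifit3. Ifit3b, next to Ifit3, was low throughout, with 0.323 to 0.519 CPM in KO3, 1.19 to 1.65 CPM in KO7, 0.333 to 0.443 CPM in WT6, 0.521 to 0.709 CPM in WT0 with ERG-245 and 0.404 to 0.881 CPM in WT0 with PBS. KO7 was highest for it, as for Ifit3. In the GENCODE transcripts, 51.2% of the 50-base stretches of Ifit3 also occur in Ifit3b and 44.5% of those of Ifit3b in Ifit3, so counts of this pair are uncertain.

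Among the effectors at membranes, Ifitm3, which hinders viruses from entering cells, measured 24.7, 22.1 and 22.8 CPM in KO3, 44.4, 46.9 and 40.5 in KO7, 21.8, 23.1 and 25.2 in WT6, 62.1, 70.0 and 71.3 in WT0 with ERG-245 and 31.2, 30.8 and 29.4 in WT0 with PBS. The drug arm was highest, and 10.0% of its 50-base stretches are shared with other genes, so its count is less certain. Bst2, which tethers virus particles to the cell surface, measured 48.9, 48.0 and 45.5 CPM in KO3, 38.9, 37.3 and 39.4 in KO7, 43.0, 46.7 and 45.3 in WT6, 43.8, 43.2 and 46.4 in WT0 with ERG-245 and 40.6, 42.7 and 35.9 in WT0 with PBS. KO3, WT6 and WT0 with ERG-245 overlapped from neighbour to neighbour, above WT0 with PBS and KO7, which overlapped with each other. Of the enzymes acting on double-stranded RNA, Eif2ak2, the kinase PKR that stops translation, measured 46.3, 44.3 and 46.1 CPM in KO3, 43.7, 41.5 and 43.2 in KO7, 39.3, 42.6 and 40.0 in WT6, 77.0, 74.7 and 72.8 in WT0 with ERG-245 and 66.1, 58.1 and 64.4 in WT0 with PBS. Both arms of WT0 were above the other leukemias. Adar, which edits adenosine to inosine, ranged from 89.6 to 96.6 CPM in KO3, 111.6 to 114.0 in KO7, 91.6 to 97.9 in WT6, 134.7 to 138.2 in WT0 with ERG-245 and 126.5 to 128.4 in WT0 with PBS. Only KO3 and WT6 overlapped among its neighbours.

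Samd9l, a restraint on growth and virus replication, measured 20.8, 18.4 and 19.3 CPM in KO3, 28.0, 30.9 and 30.6 in KO7, 50.9, 48.5 and 46.5 in WT6, 29.9, 31.4 and 31.1 in WT0 with ERG-245 and 24.5, 23.2 and 22.9 in WT0 with PBS. WT6 was highest and KO3 lowest, and KO7 overlapped with the drug arm. The dynamin-like GTPases Mx1 and Mx2 were low, and Mx1 is known to carry a defective allele in C57BL/6 mice. Mx1 ranged from 0.923 to 1.45 CPM in KO3, 1.46 to 2.39 in KO7, 1.83 to 2.28 in WT6, 1.82 to 2.28 in WT0 with ERG-245 and 1.56 to 2.86 in WT0 with PBS. Mx2 ranged from 1.84 to 2.19 CPM in KO3, 1.99 to 2.66 in KO7, 0.974 to 1.26 in WT6, 1.82 to 2.53 in WT0 with ERG-245 and 2.25 to 2.51 in WT0 with PBS. KO3 stood apart for Mx1 and WT6 for Mx2, in both cases below the other groups.

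Among the genes linked to sensing of nucleic acid, Ifih1 and Dhx58 had the same order of group means, while Zbp1 and Trim25 each had another. Ifih1, the sensor MDA5 for long double-stranded RNA, measured 24.4, 25 and 23.2 CPM in KO3, 25.9, 25 and 24.0 in KO7, 14.6, 14.2 and 13.4 in WT6, 43.8, 43.5 and 43.6 in WT0 with ERG-245 and 38.5, 35.2 and 39.5 in WT0 with PBS. Both arms of WT0 were high, WT6 was lowest and the knock-outs overlapped. Zbp1, which senses Z-form nucleic acid and can start necroptosis, measured 21.7, 21.1 and 23.2 CPM in KO3, 34.1, 38.5 and 35.7 in KO7, 30.4, 28.5 and 29.8 in WT6, 22.8, 21.9 and 22.9 in WT0 with ERG-245 and 15.3, 12.5 and 13.3 in WT0 with PBS. KO7 was highest and WT0 with PBS lowest for it. Trim25, a ubiquitin ligase linked to the sensor RIG-I, measured 123, 124 and 126 CPM in KO3, 118, 113 and 113 in KO7, 113, 114 and 114 in WT6, 134, 130.1 and 135 in WT0 with ERG-245 and 141, 137 and 140.3 in WT0 with PBS. WT0 with PBS was highest, and KO7 and WT6 overlapped as the lowest groups. Dhx58, the regulator LGP2, ranged from 9.49 to 10.7 CPM in KO3, 13.1 to 14.2 in KO7, 8.15 to 9.20 in WT6, 17.7 to 19.2 in WT0 with ERG-245 and 14.0 to 16.9 in WT0 with PBS. KO7 overlapped with WT0 on PBS.

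Dtx3l and Parp9 encode partners of a ubiquitin ligase complex, lie on opposite strands of chromosome 16 and overlap by 558 bases. Dtx3l measured 97.4, 99.5 and 92.2 CPM in KO3, 97.9, 104 and 105 in KO7, 75.2, 75.6 and 70.8 in WT6, 94.6, 101 and 98.5 in WT0 with ERG-245 and 115, 112 and 119 in WT0 with PBS. WT6 was lowest, and KO7, WT0 with ERG-245 and KO3 overlapped from neighbour to neighbour. Parp9 ranged from 57.6 to 59.7 CPM in KO3, 77.8 to 82.6 in KO7, 53.6 to 55.6 in WT6, 81.9 to 83.9 in WT0 with ERG-245 and 63.4 to 69.7 in WT0 with PBS. WT0 with ERG-245 and KO7 were its highest groups and overlapped, unlike for Dtx3l. Parp14, a mono-ADP-ribosyltransferase, measured 63.2, 62.8 and 61.1 CPM in KO3, 87.0, 84.4 and 87.0 in KO7, 61.8, 62.0 and 61.6 in WT6, 84.1, 77.9 and 80.2 in WT0 with ERG-245 and 87.9, 88.3 and 90.5 in WT0 with PBS. KO3 and WT6 overlapped at the bottom.

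The remaining named members have less defined roles. Ifi35 measured 30.1, 29.7 and 33.4 CPM in KO3, 38.1, 41.0 and 37.1 in KO7, 30.2, 31.1 and 30.8 in WT6, 94.7, 102 and 106 in WT0 with ERG-245 and 31.2, 31.9 and 30.1 in WT0 with PBS. The drug arm was highest, KO7 followed without overlap, and KO3, WT0 with PBS and WT6 overlapped below them. Rtp4, a chaperone of receptors in the Golgi, measured 12.2, 14.2 and 13.8 CPM in KO3, 12.8, 13.6 and 13.2 in KO7, 9.14, 8.34 and 9.43 in WT6, 27.9, 27.3 and 25.5 in WT0 with ERG-245 and 12.9, 15.2 and 13.6 in WT0 with PBS. The drug arm was again highest, and 11.6% of its 50-base stretches are shared with other gene models, so its count is less certain. Xaf1, a partner of the apoptosis inhibitor XIAP, measured 17.6, 18.2 and 16.6 CPM in KO3, 15.7, 16.8 and 16.1 in KO7, 10.0, 10.5 and 11.2 in WT6, 31.9, 30.0 and 31.0 in WT0 with ERG-245 and 24.7, 23.8 and 22.8 in WT0 with PBS. The knock-outs overlapped between WT0 and WT6. Trim30a, known in mice to dampen Toll-like receptor signalling, measured 40.6, 45.4 and 39.9 CPM in KO3, 30.1, 31.3 and 33.2 in KO7, 55.8, 54.9 and 55.8 in WT6, 36.1, 35.3 and 31.1 in WT0 with ERG-245 and 45.3, 45.3 and 45.7 in WT0 with PBS. WT6 was highest, and WT0 with ERG-245 and KO7 overlapped as the lowest groups. Socs1, the inhibitor of JAK kinases that ends interferon signalling, measured 32.4, 28.1 and 29.3 CPM in KO3, 37.1, 35.7 and 34.9 in KO7, 47.4, 45.6 and 51.0 in WT6, 13.4, 12.9 and 17.4 in WT0 with ERG-245 and 14.0, 17.1 and 15.7 in WT0 with PBS. WT6 was highest, and both arms of WT0 overlapped far below the knock-outs, whereas Isg15 was lowest in WT6.

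Of the others, Ifi44 ranged over all libraries from 0.432 CPM in WT6 to 2.44 CPM in WT0 with ERG-245. Ifi27l2a ranged from 9.71 CPM in KO3 to 23.3 CPM in WT0 with ERG-245. Sp100, a scaffold of nuclear bodies, was at 101.6 ± 1.4 CPM in KO3, its lowest group, and at 174.1 ± 5.6 CPM in KO7, its highest (SD, n = 3 each). Lgals3bp, a secreted glycoprotein, was at 192.4 ± 7.2 CPM in WT0 with ERG-245 and at 125.5 ± 3.3 CPM in WT6 at the low end. Phf11d, a protein with a plant homeodomain finger of which 8.09% of 50-base stretches are shared with other genes, ranged from 1.40 CPM in KO3 to 3.63 CPM in KO7. Cxcl10, a chemokine that draws activated T cells, reached 4.99 CPM in a library of WT6 and was lowest, at 2.04 CPM, in a library of WT0 with PBS, and its groups overlapped from neighbour to neighbour. Scaled by length, the most abundant member was Isg15, with a mean of 239.9 TPM (counts per exon length, scaled to a common sum) over the 15 libraries, followed by Isg20 with 151 TPM and Rsad2 with 137 TPM. The least abundant were Ifi44 with 0.676 TPM and Ifit3b with 0.598 TPM.

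**Figure D3:**
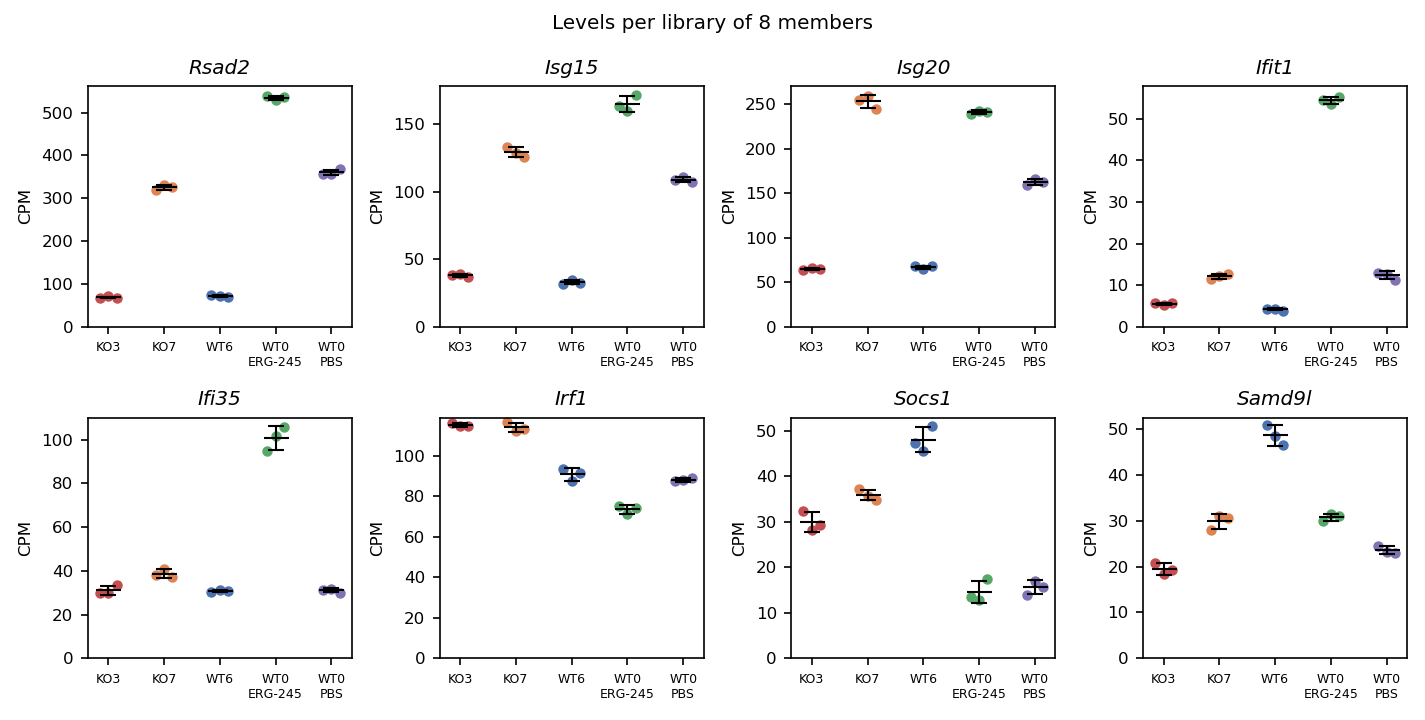
CPM (vertical axis, from 0) of 8 members in each library of the 5 groups; points are libraries, and black lines the mean and SD of 3 libraries. Rsad2, Isg15 and Isg20 are low in KO3 and WT6, Ifit1 and Ifi35 are highest in WT0 with ERG-245, Irf1 is highest in both knock-outs, and Socs1 and Samd9l are highest in WT6.

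With ERG-245, most of the 39 genes were higher than with PBS in WT0. Ifit1 was 4.36-fold and Ifi35 3.24-fold higher, Ifitm3 was 2.22-fold and the low Ifi44 2.10-fold higher, and the other members that rose did so by less. Genes that fell were few, and none fell 2-fold. In edgeR's quasi-likelihood test over all 15948 genes, 25 of 39 members rose and 5 fell at an adjusted p under 0.05, where 33.0% of all tested genes rose and 32.8% fell. At least 2-fold, 4 members rose (5.67% of all tested genes) and 0 fell (6.05%). The median log2 fold change was 0.25 over the 39 members and -0.001 over all tested genes. All 3 genes of the ISG15 system rose. Ifit1 had a log2 fold change of 2.12 ± 0.06 (SE; adjusted p = 9.60e-44), Ifi35 one of 1.69 ± 0.05 (SE; adjusted p = 3.24e-46), Ifitm3 one of 1.15 ± 0.05 (SE; adjusted p = 6.55e-32) and Rtp4 one of 0.95 ± 0.07 (SE; adjusted p = 7.14e-20), all by edgeR.

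Rsad2, Isg15, Isg20, Cmpk2 and Irf7 rose by 1.48 to 1.52-fold with the drug. The 5 that fell were Trim30a, Irf1, Dtx3l, Parp14 and Trim25. Trim30a had a log2 fold change of -0.41 ± 0.05 (SE; adjusted p = 1.13e-10) and Irf1 one of -0.26 ± 0.04 (SE; adjusted p = 1.45e-09) by edgeR. Socs1 had a log2 fold change of -0.10 (edgeR, adjusted p = 0.314), with overlapping libraries. Stat2 had one of -0.09 (edgeR, adjusted p = 0.0808), and it passed as lower with library totals without further scaling (-0.16), with no filter on low counts (-0.12), without WT0 PBS replicate 2 (-0.12) and without WT0 ERG-245 replicate 3 (-0.12). Of the other cell types, 8 of 11 erythroid markers rose and 0 fell, 8 of 15 macrophage and monocyte markers rose and 2 fell, 8 of 8 B cell markers and 8 of 10 neutrophil markers fell, 6 of 6 plasma cell markers rose, and 9 of 11 T cell markers fell. The part of these cells in the drug comparison was not tested.

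Against WT6, KO7 had most of the interferon-stimulated genes higher. Rsad2 was 4.50-fold, Isg15 3.94-fold, Isg20 3.77-fold and Cmpk2 3.25-fold higher. Trim30a, Samd9l, Socs1, Bst2 and Ifit2 were lower. In edgeR's test, 29 of 39 members rose and 5 fell, where 32.2% of all tested genes rose and 36.7% fell. At least 2-fold, 10 members rose (9.29% of tested genes) and 0 fell (8.17%). Over the members the median log2 fold change was 0.55, against -0.03 over all tested genes. All 4 transcription factors rose. By edgeR, Rsad2 had a log2 fold change of 2.17 ± 0.03 (SE; adjusted p = 4.04e-69), Isg15 one of 1.98 ± 0.04 (SE; adjusted p = 8.16e-57), Isg20 one of 1.92 ± 0.03 (SE; adjusted p = 1.70e-63) and Cmpk2 one of 1.70 ± 0.05 (SE; adjusted p = 1.22e-42).

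Trim30a had a log2 fold change of -0.82 ± 0.05 (SE; adjusted p = 1.02e-24) between KO7 and WT6, Samd9l one of -0.71 ± 0.05 (SE; adjusted p = 9.41e-21) and Socs1 one of -0.41 ± 0.06 (SE; adjusted p = 1.33e-09) by edgeR. Trim25, Herc6, Eif2ak2, Mx1 and Cxcl10 did not pass. In the same pair, 11 of 11 erythroid markers rose at least 2-fold, 12 of 15 macrophage and monocyte markers rose and 3 fell, 11 of 11 T cell markers fell, and 7 of 7 tested plasmacytoid dendritic markers fell. Siglech, at 0 CPM in KO7 and 0.145 CPM in WT6, and Klk1, at 0 in both, were not among those tested. With the scaling made without erythroid, immunoglobulin and T cell receptor genes, 29 members rose and 5 fell as before. The part of the other cells in this difference was not tested.

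KO3 against WT6 gave a mixed result. Ifih1 and Xaf1 were 1.71-fold and 1.66-fold higher, Samd9l was 2.50-fold lower and Socs1 1.60-fold lower, while Rsad2, Isg20, Cmpk2 and Irf7, which separate KO7 from WT6, did not pass. Under edgeR's quasi-likelihood test, 14 of 39 members rose and 9 fell, where 27.7% of all tested genes rose and 32.0% fell, and at least 2-fold 0 members rose (4.04%) and 1 fell (7.46%). The members were thus called in both directions, with shares not far from those of all tested genes. As a median, the log2 fold change was 0.01 over the members, -0.005 with library totals without further scaling, and -0.02 over all tested genes. It ranged from 0.007 to 0.035 when each library was left out, being lowest without KO3 replicate 1 and above 0.02 without KO3 replicate 2, WT6 replicate 2 or WT6 replicate 3. Ifih1 had a log2 fold change of 0.78 ± 0.06 (SE; adjusted p = 3.49e-18), Xaf1 one of 0.73 ± 0.07 (SE; adjusted p = 2.11e-14), Rtp4 one of 0.58 ± 0.08 (SE; adjusted p = 7.06e-09) and Dtx3l one of 0.38 ± 0.04 (SE; adjusted p = 1.29e-15), by edgeR. On the other side, Samd9l had one of -1.32 ± 0.06 (SE; adjusted p = 7.73e-35), Socs1 one of -0.68 ± 0.06 (SE; adjusted p = 1.64e-17) and Zbp1 one of -0.42 ± 0.06 (SE; adjusted p = 3.73e-09). Of the erythroid markers, 4 of 11 rose and 4 fell between KO3 and WT6, and 11 of 15 macrophage and monocyte markers fell and 1 rose; their part was not tested.

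Against WT0 with PBS, KO7 had members moving both ways. Zbp1 was 2.63-fold and Socs1 2.31-fold higher, and Ifih1, Xaf1 and Eif2ak2 were 1.51-fold, 1.47-fold and 1.47-fold lower. At an adjusted p under 0.05 in edgeR, 17 of 39 members rose and 11 fell, where 34.5% of all tested genes rose and 34.9% fell, and at least 2-fold 3 rose (8.64%) and 0 fell (7.56%). The median log2 fold change was 0.06 over the members and -0.002 over all tested genes. Without WT0 PBS replicate 1 the member median was 0.036, without WT0 PBS replicate 2 it was 0.11, without KO7 replicate 1 it was 0.13 and without KO7 replicate 2 it was 0.095. Zbp1 had a log2 fold change of 1.40 ± 0.07 (SE; adjusted p = 5.62e-31), Socs1 one of 1.21 ± 0.07 (SE; adjusted p = 9.04e-26), Ifit3 one of 0.74 ± 0.14 (SE; adjusted p = 3.66e-06) and Isg20 one of 0.64 ± 0.03 (SE; adjusted p = 5.74e-34), by edgeR. Ifih1 had one of -0.59 ± 0.06 (SE; adjusted p = 3.50e-15) and Eif2ak2 one of -0.55 ± 0.05 (SE; adjusted p = 7.41e-18). Rsad2, 4.50-fold higher in KO7 than in WT6, had a log2 fold change of -0.15 ± 0.02 (SE; adjusted p = 1.16e-07) against WT0 with PBS, so its direction in KO7 depends on the wild-type leukemia taken. The comparisons with WT6 and with WT0 share the KO7 libraries. Here 10 of 11 erythroid and 13 of 15 macrophage and monocyte markers rose, and their part was not tested.

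KO3 had most of the 39 genes lower than WT0 with PBS. Rsad2 was 5.23-fold, Cmpk2 2.92-fold, Isg15 2.86-fold and Usp18 2.61-fold lower, and Isg20, Irf7 and Ifit1 were 2.50-fold, 2.43-fold and 2.25-fold lower. By the same edgeR test, 5 of 39 members rose and 28 fell, where 34.1% of all tested genes rose and 32.4% fell, and at least 2-fold 0 rose (4.45%) and 7 fell (7.80%). Over the members the median log2 fold change was -0.46, against 0.003 over all tested genes. By edgeR, Rsad2 had a log2 fold change of -2.39 ± 0.03 (SE; adjusted p = 4.73e-71), Cmpk2 one of -1.54 ± 0.06 (SE; adjusted p = 2.82e-39), Isg15 one of -1.51 ± 0.04 (SE; adjusted p = 2.89e-48) and Usp18 one of -1.38 ± 0.11 (SE; adjusted p = 6.16e-19). The 5 that rose were Socs1, Zbp1, Irf1, Bst2 and Ifit2. Socs1 had a log2 fold change of 0.94 ± 0.07 (SE; adjusted p = 6.84e-20) and Zbp1 one of 0.69 ± 0.07 (SE; adjusted p = 7.91e-14). All 11 erythroid markers fell in this pair, 10 of them at least 2-fold, 9 of 11 T cell markers rose, and 8 of 15 macrophage and monocyte markers rose and 6 fell; their part was not tested.

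**Figure D4:**
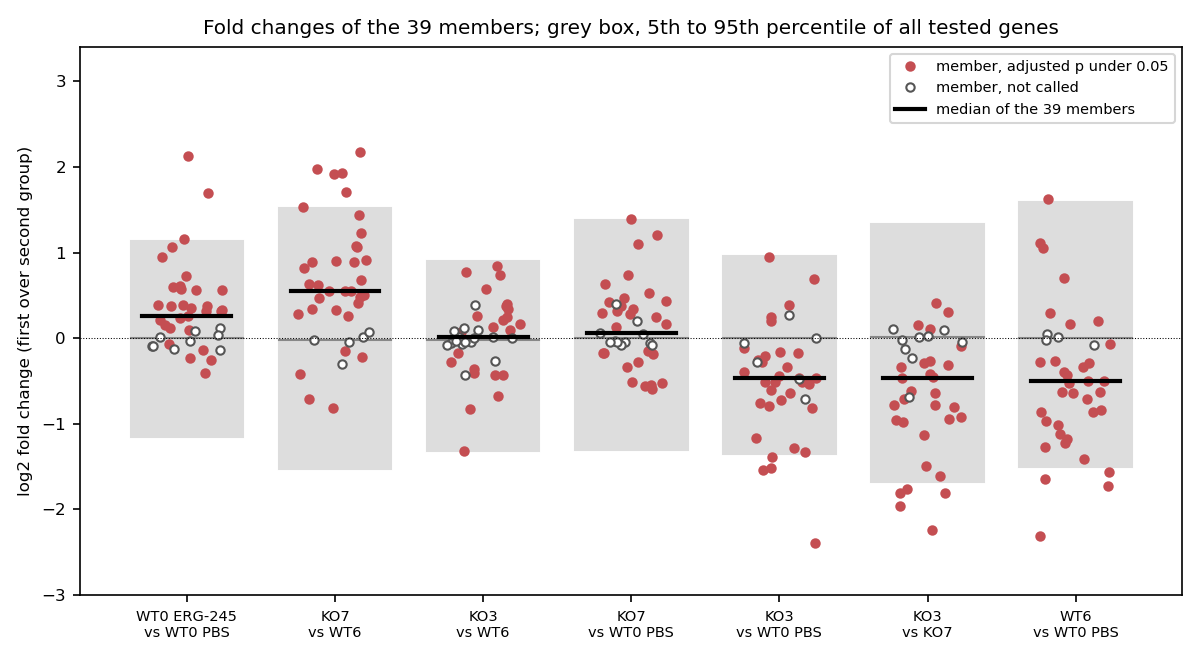
Log2 fold change (vertical axis, first group over second) of each of the 39 members in 7 comparisons of groups; filled points passed an adjusted p under 0.05 in edgeR, black bars are member medians, and grey boxes run from the 5th to the 95th percentile of the 15948 tested genes. The member median is 0.55 in KO7 against WT6 and -0.46 in KO3 against WT0 with PBS, with points on both sides of 0 in every comparison.

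The knock-out leukemias differed from each other in most members. KO3 had Rsad2 4.72-fold, Isg20 3.90-fold, Usp18 3.50-fold and Isg15 3.39-fold lower than KO7. In edgeR's test of KO3 against KO7, 4 of 39 members were higher and 26 lower, where 36.1% of all tested genes were higher and 34.6% lower, and at least 2-fold 0 were higher (7.29%) and 8 lower (12.3%). As a median, the log2 fold change was -0.47 over the members and 0.01 over all tested genes. Rsad2 had a log2 fold change of -2.24 ± 0.03 (SE; adjusted p = 9.14e-69), Isg20 one of -1.96 ± 0.03 (SE; adjusted p = 4.23e-63), Usp18 one of -1.81 ± 0.11 (SE; adjusted p = 5.98e-26) and Isg15 one of -1.76 ± 0.04 (SE; adjusted p = 4.60e-53), by edgeR. Trim30a, Bst2, Ifit2 and Trim25 were the 4 higher ones, and Trim30a had a log2 fold change of 0.41 ± 0.05 (SE; adjusted p = 2.13e-10). The call of Ifit2 ended with DESeq2 (adjusted p = 0.0582) and without KO3 replicate 2 (edgeR, adjusted p = 0.0594). All 11 erythroid markers and 12 of 15 macrophage and monocyte markers were at least 2-fold lower in KO3 than in KO7, and their part was not tested.

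The wild-type leukemias also differed from each other. WT6 had Rsad2 4.98-fold, Isg15 3.32-fold, Cmpk2 3.12-fold and Ifit1 2.97-fold lower than WT0, both with PBS, and Socs1 3.08-fold, Zbp1 2.16-fold and Samd9l 2.07-fold higher. In the edgeR fit, 7 of 39 members were higher in WT6 and 28 lower, where 36.8% of all tested genes were higher and 35.6% lower, and at least 2-fold 3 were higher (9.15%) and 10 lower (9.74%). The median log2 fold change was -0.50 over the members and 0.005 over all tested genes. Rsad2 had a log2 fold change of -2.32 ± 0.03 (SE; adjusted p = 1.44e-71), Isg15 one of -1.73 ± 0.04 (SE; adjusted p = 9.69e-53), Cmpk2 one of -1.64 ± 0.05 (SE; adjusted p = 4.65e-42) and Ifit1 one of -1.57 ± 0.10 (SE; adjusted p = 2.40e-25), by edgeR. Socs1 had one of 1.62 ± 0.07 (SE; adjusted p = 5.11e-36), Zbp1 one of 1.11 ± 0.07 (SE; adjusted p = 8.52e-26) and Samd9l one of 1.05 ± 0.05 (SE; adjusted p = 7.57e-30). All 11 erythroid markers were lower in WT6 and 10 of 15 macrophage and monocyte markers were higher, and their part was not tested.

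Irf1 went its own way among the transcription factors. Against WT6 it had a log2 fold change of 0.34 ± 0.03 (SE; adjusted p = 1.14e-15) in KO3 and of 0.33 ± 0.03 (SE; adjusted p = 1.02e-14) in KO7, and against WT0 with PBS one of 0.39 ± 0.03 (SE; adjusted p = 1.15e-17) in KO3 and one of 0.38 ± 0.03 (SE; adjusted p = 1.45e-16) in KO7, by edgeR. These comparisons share libraries. The difference between the knock-outs, with a log2 fold change of 0.01 in KO3 against KO7, did not pass (edgeR, adjusted p = 0.716). Irf7, Irf9 and Stat2 instead differed between KO3 and KO7, with log2 fold changes of -0.95, -0.64 and -0.81 (edgeR, adjusted p = 1.46e-27, 2.07e-23 and 5.95e-26). Among the members, only Irf1 was called higher in both knock-outs against both wild types, and only Trim30a was called lower. For Trim30a, the libraries of KO3 and WT0 with PBS overlapped. The share of all tested genes with such calls was not counted.

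With counts summed per leukemia, KO3 and KO7 against WT6 and WT0 with PBS, the genotype gave no call among the 39 members. In edgeR's test on 17226 genes with 2 residual degrees of freedom, 0 of 39 members rose and 0 fell, where 0.0% of tested genes were called, and 0 members had an unadjusted p under 0.05. DESeq2 called 0 members too, while it called 21 genes higher and 25 lower among 25746. Over the members the median log2 fold change was 0.09, against 0.002 over all tested genes, and it turned with the leukemias used: it was -0.24 without KO7, 0.33 without KO3, -0.14 without WT6 and 0.37 without WT0 with PBS. Irf1 had the smallest unadjusted p of the members, 0.0708, with a log2 fold change of 0.38 ± 0.16 (SE, edgeR, adjusted p = 1.0), and Trim30a had one of -0.44 ± 0.25 (adjusted p = 1.0). For Rsad2 the log2 fold change was -0.12 ± 0.99 and for Isg15 0.25 ± 0.78 (SE), each smaller than its standard error. The biological coefficient of variation was 41.9% between leukemias of a genotype and 2.18% between libraries of a group.

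The genes that make, receive and relay interferon were looked up in a list of 57, of which 54 were in the table and 33 were tested in the 15-library fit. The interferons themselves were at or near 0. Ifnb1 had 5 counts over all 15 libraries, Ifnab had 11, Ifnz had 9, Ifna2, Ifna4 and Ifne had 1 each, and the other listed Ifna genes, Ifnk, Ifnl2 and Ifnl3 had 0. Ifng, the type II interferon, reached at most 13 counts in a library, with group means of 0.405 CPM in KO3, 0.325 in KO7, 0.0947 in WT6, 0.451 in WT0 with ERG-245 and 0.137 in WT0 with PBS. In edgeR's test 12 of 33 rose and 15 fell with ERG-245 in WT0, where 33.0% of all tested genes rose and 32.8% fell. Against WT6, 10 rose and 15 fell in KO7 (32.2% and 36.7% of all tested genes), and 2 rose and 23 fell in KO3 (27.7% and 32.0%). Against WT0 with PBS, 17 rose and 10 fell in KO7 (34.5% and 34.9% of all tested genes), 11 rose and 7 fell in KO3 (34.1% and 32.4%), and 25 were higher and 6 lower in WT6 (36.8% and 35.6%). Between the knock-outs, 8 were higher and 16 lower in KO3 than in KO7 (36.1% and 34.6%).

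Receptors and kinases did not share the order of the 18 members. Ifngr1, the ligand-binding chain for interferon gamma, averaged 119.5 CPM in KO3, 190.8 CPM in KO7, 265.4 CPM in WT6, 111.9 CPM in WT0 with ERG-245 and 79.9 CPM in WT0 with PBS. It was highest in WT6, where Isg15 was lowest, and had log2 fold changes of -1.15 ± 0.03 (SE; adjusted p = 1.25e-50) in KO3 against WT6 and 1.26 ± 0.03 (SE; adjusted p = 7.68e-50) in KO7 against WT0 with PBS, by edgeR. Ifnar2, a chain of the type I receptor, averaged 47.2 CPM in KO3, 82.1 in KO7, 54.1 in WT6, 70.4 in WT0 with ERG-245 and 50.6 in WT0 with PBS. Tyk2, the kinase bound to the type I receptor, averaged 108.3 CPM in KO3, 106.2 in KO7, 64.4 in WT6, 49.1 in WT0 with ERG-245 and 85.0 in WT0 with PBS, so both knock-outs were above the wild types and the drug arm was lowest. How many of all tested genes had the knock-outs above the wild types was not counted.

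Of the upstream genes, only those called with a mean of at least 5 CPM and no overlap of libraries are ranked here. With ERG-245, the ranked genes with the largest rises were Ifngr1, Ifnar2 and Ifngr2. Those with the largest falls were Tyk2, the adaptor Mavs and the factor Irf2, with Tyk2 at a log2 fold change of -0.79 ± 0.04 (SE; adjusted p = 8.04e-30) by edgeR. KO7 against WT6 had Tlr7, a sensor of single-stranded RNA, Tyk2 and Ifnar2 higher, and the DNA sensor Cgas, its adaptor Sting1 and Irf4 lower. KO3 against WT6 had Tyk2 and Jak1 higher and Ifngr1, Aim2 and Cgas lower. Between the knock-outs, Sting1, the phosphatase Ptpn6 and Cgas were highest in KO3 relative to KO7, and Tlr7, Il10rb and Socs3 the lowest. Against WT0 with PBS, whose libraries these comparisons share, the largest rises were those of Ifngr1, Tlr7 and Irf5 in KO7, of Ifngr1, Sting1 and Irf5 in KO3, and of Ifngr1, Irf5 and Ifngr2 in WT6. The largest falls there were Irf4, Mavs and Ptpn6 in KO7, Mavs, Pias1 and Irf2 in KO3, and Mavs, Tyk2 and Pias1 in WT6.

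The promoter motifs did not separate the members by order. Of the 18 members with KO3 and WT6 lowest, 13 had a promoter window, of which 6 held the ISRE core and 3 the GAS core. Of the other 21 members, 17 had a window, of which 7 held the ISRE core and 5 the GAS core. Rsad2, Isg15 and Ifit1, among the 18, and Socs1, Trim30a and Bst2, which followed other orders, all held the ISRE core in the stretches printed above, and the Irf1 window held a GAS core.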

How the data were processed

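RNA was extracted from leukemic spleen T cells with RNeasy and sequenced as stranded mRNA libraries, per the labels' protocols. The authors deposited a table of raw counts per gene, made with featureCounts 2.0.1 on mm10, per the file header and the submitters' processing notes, with strand setting 2, a minimum overlap of 25 bases and read pairs mapped at both ends. The notes also name Trim Galore, STAR, Subread and DESeq2. The deposited table also gives the exon length of each gene, which was used for TPM. Of 39836 lines, 9 broken lines (3 genes, none of them a member) were left out, which left 39827 genes, 39743 of them with a symbol.

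Counts of the 15 libraries were analysed with edgeR 4.0.16 (R 4.3.3): TMM scaling, filterByExpr (15948 genes), a quasi-likelihood fit by group with 10 residual degrees of freedom, and Benjamini-Hochberg adjustment over all tested genes. Fold changes are the first-named group over the second. Genotype was also tested on counts summed per leukemia. CPM uses the TMM-scaled library total. Total counts were 17441292 to 28902573, and replicate pairs differed by more than sampling noise, so no library was counted as a duplicate.

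Alternatives were DESeq2 1.42.0, other scalings, no filter on low counts, fits of only the compared groups, the replicate number as a block, and leaving out each library. Values in every library are given for the members with the largest called changes (up to 4 per direction and comparison, a mean of at least 5 CPM, no overlap of libraries) and for the transcription factors; of the upstream genes up to 3 per direction are named by the same conditions. The members, gene lists and rules were chosen with earlier results of these data known. An item of the upstream list is not reported here by name.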

Additional observations from a re-analysis of the deposited data

Results flagged for a closer look

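The change against WT6 differed between KO3 and KO7 for 30 of the 39 members, by edgeR's test of KO3 against KO7 at an adjusted p under 0.05, where 36.1% of all tested genes were higher and 34.6% lower in KO3, so the count is near that of all genes. Against WT6, Stat2, Usp18 and Sp100 were lower in KO3 and higher in KO7, with log2 fold changes of KO3 over KO7 of -0.81 for Stat2, -1.81 for Usp18 and -0.78 for Sp100. Zbp1 did the same, with a log2 fold change of -0.71. Of all tested genes, 32.0% were lower in KO3 and 32.2% higher in KO7 against WT6. The share of genes with both calls is not given for either wild type, so it cannot be said if the numbers of such members are unusual. Against WT0 with PBS, 32.4% of all tested genes were lower in KO3 and 34.5% higher in KO7. Stat2, Usp18 and Sp100 were again lower in KO3 and higher in KO7 there, and so were 9 other members. Among these 9, the log2 fold changes of KO3 over KO7 were -1.50 for Ifit3, -1.76 for Isg15, -0.96 for Ifi27l2a, -0.46 for Parp9 and -0.34 for Lgals3bp. Those of the other 4 were -0.61 for Samd9l, -1.96 for Isg20, -0.97 for Phf11d and -0.92 for Ifitm3. Ifit3 shares sequence with Ifit3b, and Phf11d and Ifitm3 with other genes, so these counts are less certain.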

How the results depend on the processing

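The counts of members called in each comparison kept within 1.5 times their value under every alternative run, with 1 exception: between KO3 and WT0 with PBS, the number of members at least 2-fold higher was 0 with all libraries and 0 to 1 when each library was left out, the 1 being reached without WT0 PBS replicate 2. No named gene's fold change that passed the test turned in direction. The median log2 fold change of the members did turn in 2 comparisons: for KO3 against WT6 it was -0.005 with library totals, and for the sums per leukemia it was -0.24 to 0.37 when each leukemia was left out. Among single genes, Stat2 between the arms of WT0 passed with library totals (-0.16), with no filter on low counts (-0.12) and when WT0 PBS replicate 2 or WT0 ERG-245 replicate 3 was left out, Irf1 in WT6 against WT0 with PBS passed with library totals (0.12), and Ifit2 in KO3 against KO7 no longer passed with DESeq2 or without KO3 replicate 2. The cause was not tested. Same-numbered libraries did not deviate together (correlations of -0.0462 to 0.0321 over 30 pairs), and 0 of 15 libraries correlated best with their own number. With the replicate number as a block, 25 members were higher and 5 lower with ERG-245 than with PBS in WT0, 29 and 5 in KO7 against WT6, and 5 and 27 in KO3 against WT0 with PBS. For the sums per leukemia, no paired analysis was possible because leukemias carry no shared numbers. Members at few counts, such as Ifit3b, Ifi44, Mx1, Mx2 and Cxcl10, are the least precise.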
